A study of Mus musculus with 16 samples.

Results

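The genes described here encode 42 enzymes and enzyme regulators that carry glucose carbon through glycolysis, into the mitochondrion, around the citrate cycle and across the shuttles linking mitochondrion and cytosol. They were listed by gene name and are 42 of 22869 genes in the count table. All 42 passed the filter on low counts and were among the 15544 genes tested. RNA came from live β cells sorted from islets of MIP-GFP/Bl6 mice, in which the mouse insulin promoter drives green fluorescent protein, so young and old cells alike carry the reporter. The 3 old libraries were labelled 15, 16 and 17 months and the 2 young libraries 4-6 weeks, each from a pool of 5 to 10 mice. Histone marks and CpG methylation came from sorted C57Bl6 β cells of 16-18 months and 4-6 weeks, with 1 sample per age and no replicate. H3K27ac was held for young cells only. For the old bisulfite pool the design text states a different age, and it names replicas of old H3K27me3. The sources used here do not say whether the deposited list joins them.

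In β cells, glucose carbon is the signal for insulin release. Glycolysis turns glucose into pyruvate, pyruvate dehydrogenase and pyruvate carboxylase feed that pyruvate into the citrate cycle, and the cycle and the shuttles supply the electrons from which mitochondria make ATP. The rise in ATP closes potassium channels, calcium enters and insulin granules fuse. Mature β cells carry little lactate dehydrogenase A and little of the pyruvate exporter encoded by Slc16a1, so that pyruvate is steered to mitochondria.

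Total gene counts were 23559908 to 33562822 in the old libraries, 6377619 in the shallower and 12892123 in the deeper young library. Levels are given in CPM, the standard unit of counts relative to the library total, with totals scaled by TMM factors. Of 12 β-cell markers 4 were called higher in old cells and 0 lower, with a median log2 change of 0.90. Markers of other cells were more abundant in young libraries. The summed level of 7 stromal markers was 17.8 to 31.9 CPM in old libraries, 454 in the shallower and 4437 in the deeper young library. For 4 α-cell markers it was 878 to 1791 CPM in old libraries, 1945 in the shallower and 31434 in the deeper young library, and for 10 acinar markers 87.6 to 127, 1447 and 2181 CPM. No marker on these lists was at 0 in all old libraries. The part of such cells in the differences below was not tested, and in bulk samples fewer cells of a type and less RNA per cell cannot be told apart. Scaling on the β-cell markers alone moved the median log2 change of all genes from -0.05 to -0.70, and scaling with RLE factors moved it to -0.17. Scaling on the β-cell markers takes these 12 genes together as unchanged with age, which was not tested. They include G6pc2, which is also among the other pathway genes below.

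With TMM factors the enzyme genes of each step had a positive median change in old cells, and 1 of 42 passed the test. Under β-marker scaling the median over all 42 was -0.11, with 15 positive and 27 negative changes. Aldoa, which encodes aldolase A, the enzyme that splits fructose-1,6-bisphosphate, rose. By edgeR's quasi-likelihood test with Benjamini-Hochberg adjustment over all genes, 1 enzyme gene was called higher and 0 lower at an adjusted p under 0.05. Over all genes tested 3.17% were called higher and 7.93% lower. At an unadjusted p under 0.05, 8 enzyme genes were higher and 3 lower, beside 11.7% and 18.1% of all genes tested. The log2 change was positive for 30 of 42 (71.4%), beside 48.2% of all genes tested, and its median was 0.57, beside -0.05. In 17 of 42 (40.5%) every old library lay above every young one, beside 24.4% of all genes tested. In 2 of 42 (4.76%), Gpi1 and Eno1, every old library lay below, beside 24.5%.

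The lean depended on how libraries were scaled and on the young libraries. Scaled on the β-cell markers, 15 of 42 enzyme genes had a positive log2 change and their median was -0.11, which lies 0.59 above the median of all genes under that scaling. The same distance was 0.62 with TMM factors and 0.62 with RLE factors. Without the shallower young library the median was 0.33, at a distance of 0.28, and without the deeper one 0.63, at a distance of 0.65. With only the shallower young library kept, 14 enzyme genes were called higher and 3 lower, beside 13.9% and 18.2% of all genes in that fit. With only the deeper one kept, 7 and 2 were called, beside 8.06% and 12.1%. Both fits took the spread between libraries from the old ones alone. With any 1 old library left out, 0 were called in either direction. In those fits few genes were called at all, with 0.248, 0.337 and 0.318% higher and 1.92, 2.63 and 1.13% lower without old library 1, 2 and 3. DESeq2 called 4 higher (Pfkm, Aldoa, Idh2 and Suclg1) and 2 lower (Gpi1 and Pdk4), beside 6.99% and 17.5% of the genes it tested. limma-voom called 2 higher (Aldoa and Mdh1) and 0 lower, beside 3.65% and 12%. The summed level of all 42 genes was 2313, 2530 and 2249 CPM in the old libraries and 1806 and 1794 CPM in the shallower and deeper young ones.

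**Figure D1:**
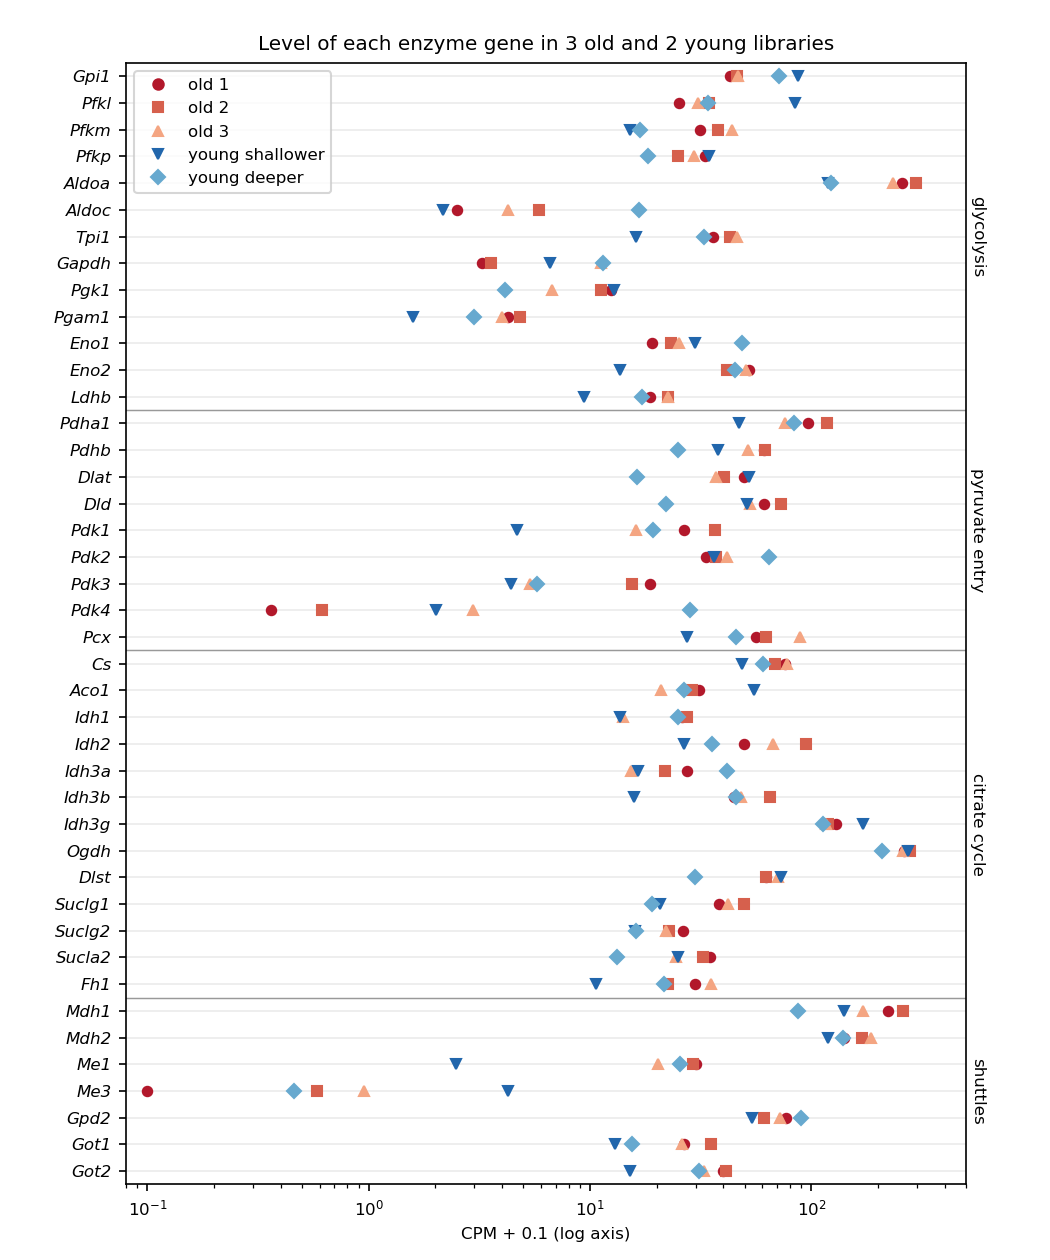
Level of each of the 42 enzyme genes as CPM + 0.1 on a log axis, with 1 point for each of 3 old (red) and 2 young (blue) libraries, ordered by step of metabolism. The 3 old points of Aldoa lie at 233 to 296 CPM and its young points at 119 and 123, while the young points of Me1 and Pdk4 lie far apart.

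Glycolysis was represented by 13 genes. Of these 1 was called higher and 0 lower, beside 3.17% and 7.93% of all genes tested. The log2 change was positive for 8 of 13, with a median of 0.26. Aldoa was measured at 257, 296 and 233 CPM in old libraries 1 to 3 and at 119 and 123 CPM in the shallower and deeper young libraries. The old and young values did not overlap, and the young libraries were close to each other. The mean was 262 ± 31.4 CPM in old (SD, n = 3) and 121 ± 3.24 CPM in young cells (SD, n = 2). The log2 change was 1.12 (SE 0.23, 95% interval 0.59 to 1.64), a 2.17-fold difference with an edgeR adjusted p of 0.0248. Without old library 1, 2 or 3 the log2 change was 1.12, 0.99 and 1.18, and the call was lost (edgeR adjusted p = 0.106, 0.0963 and 0.066). It was also lost under β-marker scaling, where the log2 change was 0.48 (edgeR adjusted p = 0.499).

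The phosphofructokinase genes, whose products catalyse the committed step of glycolysis, were not called. Pfkm, the muscle-type subunit, was measured at 31.4, 37.8 and 43.9 CPM in old and 15 and 16.7 CPM in young libraries, which did not overlap. The log2 change was 1.25 (SE 0.37, 95% interval 0.41 to 2.09) and missed the threshold (edgeR adjusted p = 0.0631), and under β-marker scaling it was 0.57. Pfkl, the liver-type subunit, was measured at 25.2, 34.3 and 30.7 CPM in old and 84.7 and 34 CPM in young libraries, with a log2 change of -0.98 (SE 0.42, edgeR adjusted p = 0.164). The shallower young library alone was high, and without it the log2 change was -0.17. Pfkp, the platelet-type subunit, had 24.9 to 33.1 CPM in old and 18.1 to 34.3 CPM in young libraries and overlapped.

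Shares within a set of related genes do not depend on the scaling of a library, and they were compared on a per-length scale. It is counts over a relative transcript length, called per-length CPM. Unlike CPM here, it was scaled without TMM factors, to each library's sum over genes with such a length. Pfkm made up 42.5, 46.4 and 49.9% of the phosphofructokinase trio in old libraries and 14.5 and 30.3% in the shallower and deeper young ones. Pfkl made up 25.9, 32 and 26.5% in old and 62.1 and 46.6% in young libraries. So Pfkm was the largest share in each old library and Pfkl in each young one. With 3 against 2 libraries an exact two-sided permutation test over 10 arrangements cannot give a p under 0.1, which both shares had (p = 0.1, adjusted over 17 shares 0.425). The part of other cell types in these shares was not tested.

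Enolase makes phosphoenolpyruvate. Eno1, the widely used form, was measured at 19, 23.1 and 25.1 CPM in old and 29.8 and 48.5 CPM in young libraries, with no overlap and a log2 change of -0.81 (SE 0.37, edgeR adjusted p = 0.19), which was -0.40 without the deeper young library. Eno2, the neuronal and endocrine form, was measured at 52.3, 41.5 and 50.6 CPM in old and 13.5 and 45 CPM in young libraries, with a log2 change of 0.71 (SE 0.50, edgeR adjusted p = 0.375) that was -0.11 under β-marker scaling. Without the deeper young library the Eno2 change was 1.85, and without the shallower one 0.10, each against 1 young library. Eno1 took 35, 45.2 and 42.4% of the per-length level of the pair in old libraries and 76.6 and 61.5% in young ones. These groups did not overlap (exact permutation p = 0.1, the smallest possible). Of 17 shares compared, 4 (23.5%) did not overlap between old and young libraries, those of Pfkm, Pfkl, Eno1 and Pdk1. Over all genes tested, 48.9% did not overlap in CPM. The other 13, among them those of Idh1, Suclg2, Mdh1, Got1 and Me1 within their pairs, overlapped.

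**Figure D2:**
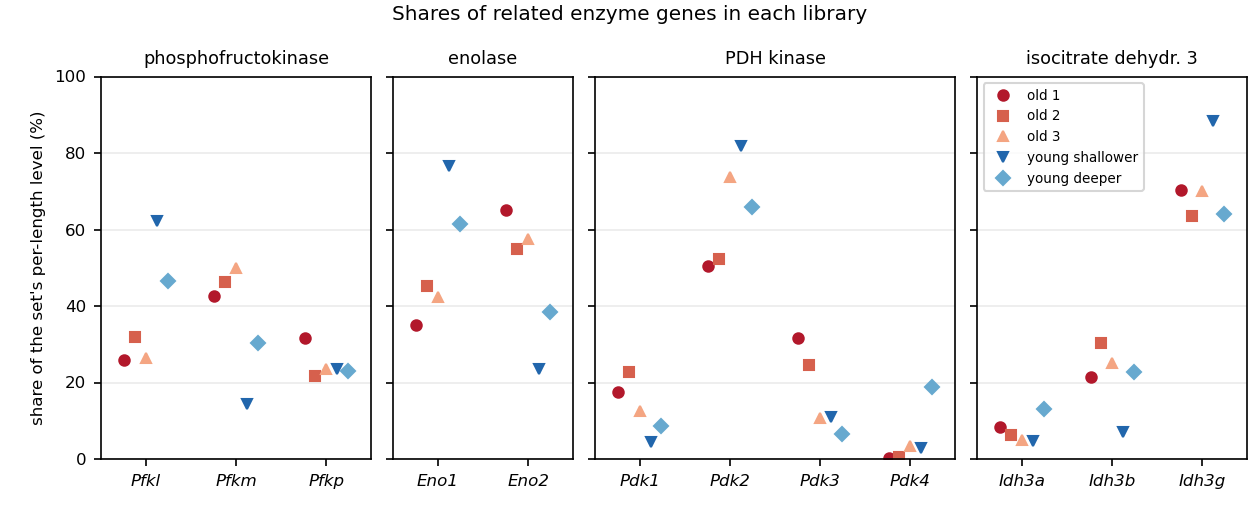
Share of the summed per-length level (%) that each gene of 4 related sets took in 3 old (red) and 2 young (blue) libraries, 1 point per library. Pfkm and Eno2 are higher in every old library than in either young one, and Pfkl and Eno1 lower. Pdk1 is also higher in every old library, and the isocitrate dehydrogenase 3 genes overlap.

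Gpi1, the isomerase that turns glucose-6-phosphate into fructose-6-phosphate, was measured at 42.7, 46.1 and 46.7 CPM in old and 87.3 and 71.6 CPM in young libraries, which did not overlap. Its log2 change of -0.82 (SE 0.27) missed the threshold in edgeR (adjusted p = 0.0842). Aldoc, the brain-type aldolase, was measured at 2.4, 5.81 and 4.18 CPM in old and 2.07 and 16.5 CPM in young libraries. Its log2 change of -1.18 (SE 0.95, edgeR adjusted p = 0.449) turned to 1.0 without the deeper young library. Aldoa made up 88.9 to 99.1% of the aldolase pair in each of the 5 libraries. Tpi1, which interconverts the triose phosphates, and Ldhb, a lactate dehydrogenase subunit, were higher in every old library by log2 changes of 0.76 and 0.67, and neither passed the test. Under β-marker scaling they stood at -0.01 and -0.08, and without the deeper young library at 1.37 and 1.19.

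Gapdh, Pgk1 and Pgam1, which act between the triose phosphates and phosphoenolpyruvate, held few counts. Gapdh had 84, 115 and 234 counts in old and 44 and 156 in the shallower and deeper young library. In the mouse genome Gapdh has many near-identical pseudogene copies, and the sources used here do not say how reads matching several places were counted, so its level is uncertain. Pgk1, Pgam1 and Eno1 also have such copies and are uncertain in the same way. The log2 changes were -0.59 for Gapdh, 0.26 for Pgk1 and 0.96 for Pgam1, with standard errors of 0.70 to 0.94.

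The entry of pyruvate into mitochondria was represented by 9 genes, of which 0 were called in either direction by edgeR. At an unadjusted p under 0.05, 2 were higher and 1 lower, beside 11.7% and 18.1% of all genes tested. DESeq2 called 0 higher and 1 lower, beside 6.99% and 17.5% of the genes it tested. The log2 change was positive for 7 of 9, with a median of 0.78. Pyruvate dehydrogenase turns pyruvate into acetyl-CoA, and of its subunit genes Pdhb was measured at 61.1, 61.6 and 51.9 CPM in old and 37.6 and 24.8 CPM in young libraries, with no overlap. The change was 0.90 on the log2 scale (SE 0.33, edgeR adjusted p = 0.108) and 0.35 under β-marker scaling. Dld, the shared dihydrolipoamide dehydrogenase, was also higher in every old library, by a log2 change of 0.78. It was 1.51 without the shallower young library, 0.30 without the deeper one and 0.30 under β-marker scaling. Pdha1 and Dlat overlapped between ages, at log2 changes of 0.57 and 0.32. Pcx, pyruvate carboxylase, which makes oxaloacetate and is abundant in β cells, was measured at 56, 62.5 and 89 CPM in old and 27.4 and 45.4 CPM in young libraries. These did not overlap, and its log2 change was 0.92 (SE 0.36, edgeR adjusted p = 0.132) and 0.16 under β-marker scaling. Against the shallower and deeper young library alone it was 1.35 and 0.61.

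The 4 pyruvate dehydrogenase kinases, which phosphorylate the enzyme and switch it off, overlapped between ages in CPM, and none was called. Pdk4, the form known for its response to fasting, was measured at 0.263, 0.514 and 2.85 CPM in old and 1.92 and 28.1 CPM in the shallower and deeper young libraries. The groups overlapped and the deeper young library alone was high. Its log2 change was -3.64 (SE 1.33, edgeR adjusted p = 0.111), and -0.67 without that library. The deeper young library also held the largest summed levels of stromal (4437 CPM), α-cell (31434 CPM) and acinar markers (2181 CPM). It did not for duct markers, at 319 CPM beside 408 in the shallower one. The part of such cells in the Pdk4 difference was not tested. Pdk3 was measured at 18.5, 15.4 and 5.27 CPM in old and 4.29 and 5.63 CPM in young libraries. Old library 3 was within the young range, and the log2 change was 1.39 (SE 0.72, edgeR adjusted p = 0.239). Pdk2 made up the largest share of the 4 kinases on the per-length scale in each library, at 50.5 to 73.6% in old and 66 to 81.7% in young ones. Pdk1 took 17.6, 22.8 and 12.5% in old and 4.55 and 8.66% in young libraries, without overlap (exact permutation p = 0.2).

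The citrate cycle was represented by 13 genes. None was called in either direction by edgeR. At an unadjusted p under 0.05, 2 were higher and 0 lower, beside 11.7% and 18.1% of all genes tested. DESeq2 called 2 higher and 0 lower, beside 6.99% and 17.5% of the genes it tested. The log2 change was positive for 10 of 13, with a median of 0.44. Idh2, the mitochondrial isocitrate dehydrogenase that makes NADPH, was measured at 49.4, 94.4 and 66.8 CPM in old and 26.6 and 35.5 CPM in young libraries. The groups did not overlap, and old library 2 was the highest. Its log2 change was 1.17 (SE 0.37, 95% interval 0.33 to 2.02, edgeR adjusted p = 0.0757) and 0.48 under β-marker scaling. Suclg1, the shared α subunit of succinate-CoA ligase, was measured at 38.3, 49.4 and 41.9 CPM in old and 20.6 and 19 CPM in young libraries, again with no overlap. The change was 1.13 on the log2 scale (SE 0.34, 95% interval 0.35 to 1.91, edgeR adjusted p = 0.0673) and 0.50 under β-marker scaling.

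Cs (citrate synthase), Suclg2 and Fh1 (fumarate hydratase) were also higher in every old library than in any young one, by log2 changes of 0.44, 0.57 and 0.85, and none of them passed the test. Under β-marker scaling they stood at -0.24, -0.07 and 0.07, and without the deeper young library Fh1 stood at 1.48. Ogdh and Dlst, subunits of the 2-oxoglutarate dehydrogenase complex, stood at log2 changes of 0.15 and 0.35 and overlapped, and both turned negative under that scaling. The genes of the NAD-linked isocitrate dehydrogenase differed in spread. Idh3g was the largest share of the trio in every library (63.4 to 88.3% on the per-length scale). Idh3b was measured at 44.8, 65 and 47.8 CPM in old and 15.7 and 45.7 CPM in young libraries, so that the shallower young library alone was low. Its log2 change of 0.77 was 1.75 against that library alone and 0.21 against the deeper one alone. Idh1 (the cytosolic isocitrate dehydrogenase), Idh3a, Aco1 (the cytosolic aconitase and iron-regulatory protein) and Sucla2 overlapped between ages, at log2 changes of 0.22, -0.44, -0.60 and 0.69.

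The shuttles and NADPH-making enzymes were represented by 7 genes, of which 0 were called by edgeR. At an unadjusted p under 0.05, 2 were higher and 0 lower, beside 11.7% and 18.1% of all genes tested. DESeq2 called 0 in either direction, beside 6.99% higher and 17.5% lower of the genes it tested. The log2 change was positive for 5 of 7, with a median of 0.71. Every old library lay above every young one for 4 of 7 (57.1%), beside 24.4% of all genes tested. Mdh1, the cytosolic malate dehydrogenase of the malate-aspartate shuttle, was measured at 221, 259 and 172 CPM in old and 141 and 87.1 CPM in young libraries. Its log2 change was 0.93 (SE 0.30, 95% interval 0.24 to 1.63, edgeR adjusted p = 0.082) and 0.41 under β-marker scaling. Got1, the cytosolic aspartate aminotransferase of the same shuttle, was measured at 26.6, 35.2 and 25.9 CPM in old and 12.9 and 15.4 CPM in young libraries. The change was 1.05 on the log2 scale (SE 0.40, 95% interval 0.13 to 1.96, edgeR adjusted p = 0.122) and 0.39 under β-marker scaling. Their mitochondrial partners Mdh2 and Got2 had log2 changes of 0.36 and 0.71, which turned to -0.32 and -0.04 under β-marker scaling.

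Gpd2, the mitochondrial enzyme of the glycerol phosphate shuttle, differed little, at 61.3 to 76.4 CPM in old and 53.7 and 89.5 CPM in young libraries (log2 change -0.04, 95% interval -0.74 to 0.66). Me1, the cytosolic malic enzyme, was measured at 29.9, 29 and 20.2 CPM in old and at 2.37 and 25.3 CPM in the shallower and deeper young library. Its log2 change was 0.92 (SE 0.81, edgeR adjusted p = 0.49), 3.48 against the shallower library alone and 0.07 against the deeper one alone. Me3, a mitochondrial malic enzyme, had 0, 16 and 18 counts in old and 28 and 5 counts in young libraries, too few to compare.

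**Figure D3:**
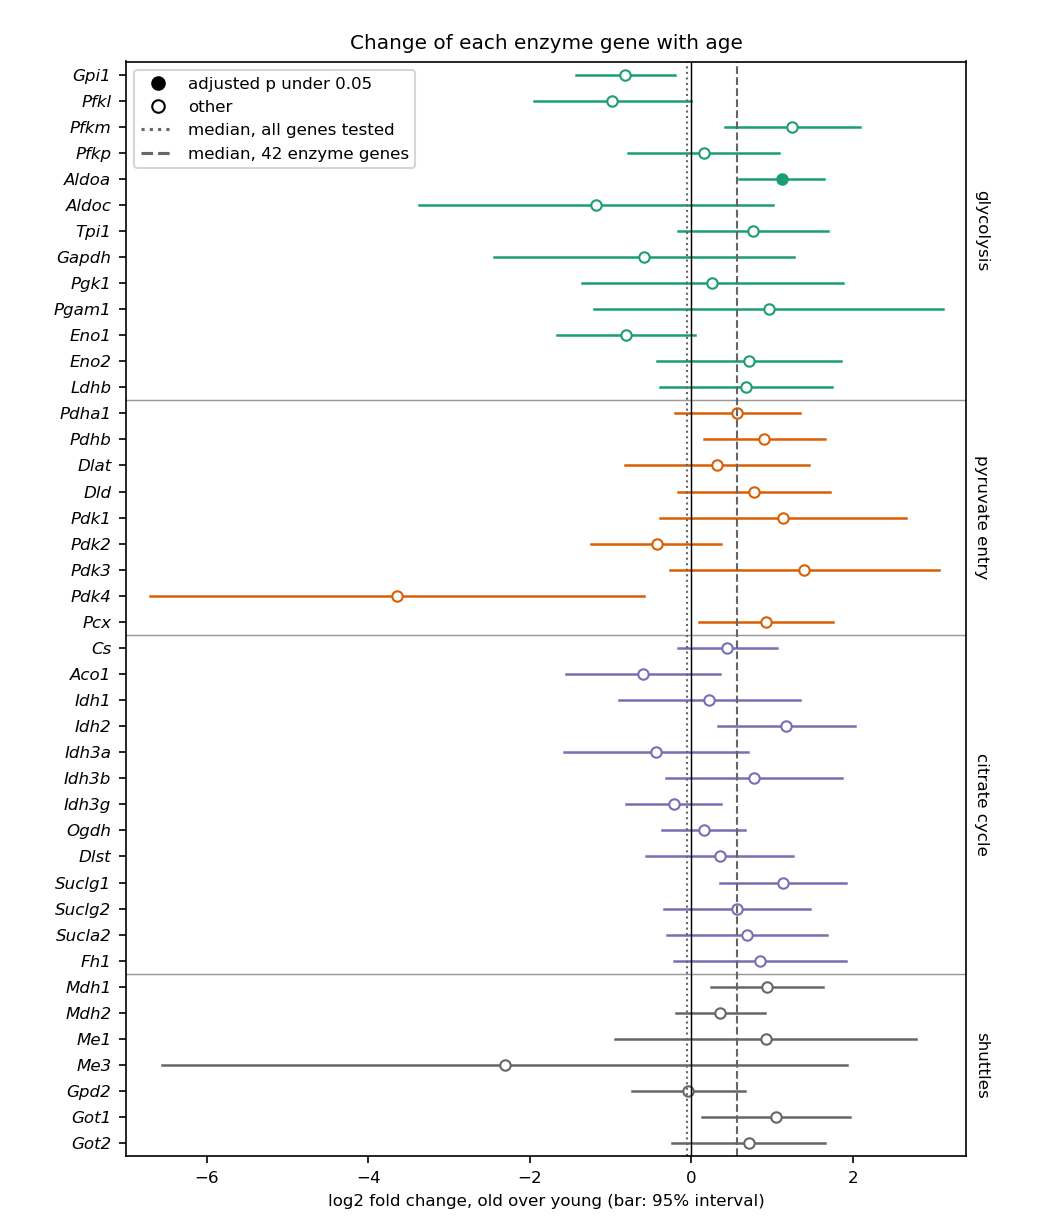
Log2 fold change (old over young) of the 42 enzyme genes with 95% intervals, coloured by step of metabolism, with the medians of these genes (dashed, 0.57) and of all genes tested (dotted, -0.05). Aldoa alone is filled for an edgeR adjusted p under 0.05, and the intervals of Pdk4 and Me3 are the widest.

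On the per-length scale Aldoa was the highest of the 42 genes in old cells, at 197 to 292 per-length CPM. Mdh2 (179 to 209), Mdh1 (118 to 208) and Idh3g (118 to 157) followed, and each of these 4 overlapped with the next in that order. In young cells Idh3g (155 and 215) and Mdh2 (155 and 199) were highest, with Aldoa at 125 and 142. Pdk4 and Me3 were lowest in old cells, with mean levels of 0.486 and 0.145 per-length CPM.

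Beside the 42 genes, a list of 50 other genes of the same pathways was drawn up, of which 46 were in the table and 44 were tested. Of these 1 was called higher and 6 lower, beside 3.17% and 7.93% of all genes tested. The rise was in Sdha, the flavoprotein of succinate dehydrogenase, measured at 247, 288 and 239 CPM in old and 65.4 and 69.9 CPM in young libraries (log2 change 1.93, SE 0.24, edgeR adjusted p = 0.00547). The list for the citrate cycle also holds Acly, the cytosolic ATP citrate lyase. All 7 genes tested on it were higher in every old library than in any young one, beside 24.4% of all genes tested. The median log2 change of these 7 was 0.81 with TMM factors, and their change under β-marker scaling is not given here. The 6 that fell were all on the list for glycolysis, which also holds Fbp1, the fructose-1,6-bisphosphatase of gluconeogenesis, and Slc16a1, the pyruvate and lactate exporter. Hk1, a hexokinase of high glucose affinity, fell by 6.08 on the log2 scale, Ldha by 5.21, Fbp1 by 4.5 and Pfkfb4 by 2.62 (edgeR adjusted p = 0.0118, 0.0141, 0.0249 and 0.0307). Slc16a1 had 0 counts in all old libraries and 4.29 and 1.3 CPM in the young ones, and was called lower (edgeR adjusted p = 0.0457). Ldha stood at 0.15 to 0.908 CPM in old libraries and 16 and 25.8 CPM in young ones. Markers of acinar, endothelial and stromal cells were lower in old libraries as well, and their part in these falls was not tested. Pkm2, the main pyruvate kinase gene of β cells, and G6pc2, an islet glucose-6-phosphatase, were higher in every old library by log2 changes of 0.75 and 1.55, and neither passed the test (edgeR adjusted p = 0.0748 and 0.0822).

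The starts of the 42 genes were compared with bisulfite sequencing, in which unmethylated cytosines are converted and methylated ones are not. Levels are methylated calls over all calls of CpGs within 1000 bases of the start that had at least 5 reads at both ages. The CpG tables held a mean coverage of 43.16 reads in young and 29.15 in old cells, and over 15451359 CpGs the mean level was 74.37% in young and 74.22% in old cells. With 1 library per age there is no test, and 95% Wilson intervals cover counting error only. On the mitochondrial chromosome 6.33% of CpG calls in young and 4.51% in old cells read as methylated. The part of incomplete conversion in low levels, and in small differences between them, was not tested. All 42 starts were measured, and most were poorly methylated at both ages, with a median of 7.52% in young and 7.19% in old cells. The median difference was 0.304 percentage points, beside 0.115 over 15314 genes tested for RNA. At least 10 points lower in old cells were 2 of 42 starts, Idh3b and Pfkm, beside 3.08% of genes. At least 10 points higher was 1, Pdk4, beside 2.44%.

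Sequences before some of these starts are shown here from RefSeq promoter windows of build GRCm38.p6. They are 250 bases 5′ to 3′ ending just before the start, with CpG sites in capitals. Methylation levels took in both sides of a start. Most CpGs measured at Idh3b and Pfkm therefore lie outside the bases shown. Windows matched 41 of 42 genes by symbol. The methylation files use mm9, and no coordinate was carried between builds. For Aldoa, Pfkm and Pcx the starts were matched by the distances between starts of the same gene, which were the same in both builds apart from 1 further Pfkm start, not used here. Idh3b (chr2:130284452-130284701, minus strand), Pfkm (chr15:98092339-98092588, plus strand, the first start) and Pdk4 (chr6:5496279-5496528, minus strand) differed most. Aldoa (chr7:126799255-126799504, minus strand, the second start) is shown as the gene called in RNA. The Aldoa transcript used for RNA and methylation levels begins at the third start, whose window held 19 CpGs. In each library the lowest count of the 3 Aldoa transcripts was 98.95 to 100% of the highest. The counts therefore do not tell these Aldoa starts apart. The second start lies 1193 bases and the third 1269 bases from the first. Pcx is shown at its first (chr19:4510222-4510471) and second start (chr19:4594069-4594318), both on the plus strand, as a gene with a CpG-rich and a CpG-poor start.
Idh3b: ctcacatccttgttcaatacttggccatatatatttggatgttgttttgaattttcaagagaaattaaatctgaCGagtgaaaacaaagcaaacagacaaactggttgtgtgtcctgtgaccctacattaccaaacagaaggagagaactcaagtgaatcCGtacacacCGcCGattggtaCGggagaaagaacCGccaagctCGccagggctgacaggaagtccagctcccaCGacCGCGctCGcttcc
Pfkm: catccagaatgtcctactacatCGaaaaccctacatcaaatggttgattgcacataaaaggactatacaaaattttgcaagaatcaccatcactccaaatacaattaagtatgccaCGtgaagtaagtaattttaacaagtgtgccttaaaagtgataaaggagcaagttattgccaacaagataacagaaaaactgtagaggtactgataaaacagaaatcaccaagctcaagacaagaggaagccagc
Pdk4: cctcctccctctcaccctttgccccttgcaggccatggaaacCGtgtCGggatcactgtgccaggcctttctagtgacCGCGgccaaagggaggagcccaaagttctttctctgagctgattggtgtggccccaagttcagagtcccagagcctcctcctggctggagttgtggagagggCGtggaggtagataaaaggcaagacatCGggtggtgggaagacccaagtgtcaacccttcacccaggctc
Aldoa: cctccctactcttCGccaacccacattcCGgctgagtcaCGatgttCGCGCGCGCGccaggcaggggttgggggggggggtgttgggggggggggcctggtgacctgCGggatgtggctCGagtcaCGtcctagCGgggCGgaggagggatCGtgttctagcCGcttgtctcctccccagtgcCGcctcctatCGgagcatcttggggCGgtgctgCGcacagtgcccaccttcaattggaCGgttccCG
Pcx, first start: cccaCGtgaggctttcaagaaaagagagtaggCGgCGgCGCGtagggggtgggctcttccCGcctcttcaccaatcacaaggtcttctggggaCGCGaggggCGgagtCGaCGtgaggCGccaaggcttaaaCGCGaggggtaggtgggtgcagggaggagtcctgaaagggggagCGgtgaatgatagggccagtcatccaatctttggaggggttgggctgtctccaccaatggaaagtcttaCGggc
Pcx, second start: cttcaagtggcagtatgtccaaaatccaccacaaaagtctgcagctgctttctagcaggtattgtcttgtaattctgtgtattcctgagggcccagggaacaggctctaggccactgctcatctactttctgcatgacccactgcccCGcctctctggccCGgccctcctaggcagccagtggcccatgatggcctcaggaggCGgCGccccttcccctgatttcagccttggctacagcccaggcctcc

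The Idh3b window held 11 CpGs, the Pdk4 window 6, the Pfkm window 2 and the Aldoa window 21. Over the 60 windows of these genes the median was 19 CpGs in 300 bases and 60.2% G and C, beside 7 CpGs and 52.7% over all 32851 windows. The GC box GGGCGG, on either strand, was found in windows of 27 of 41 genes (65.9%), beside 38.2% of 27025 genes. ACGTG, the core of the hypoxia element, which also lies inside the E-box CACGTG, was found in 15 (36.6%, beside 21.8%), and the E-box itself in 4 (9.76%, beside 8.09%). TNAAGGTCA, the element of estrogen-related receptors, was found in 1, Tpi1 (2.44%, beside 1.43%). A match is a description of letters and not of binding.

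Idh3b showed the largest decrease in promoter level, from 16.6% in young (95% interval 15.1 to 18.2%, 2158 calls) to 4.82% in old cells (4.02 to 5.77%, 2304 calls) over 53 CpGs. The difference lay mostly in the first 500 bases after the start, where the level was 16.0% in young and 2.62% in old cells. Pfkm went from 19.5% (17.7 to 21.5%) to 8.68% (7.65 to 9.82%) over 84 CpGs at its first start. In the first 500 bases after that start the level was 19.7% in young and 4.51% in old cells. The second Pfkm start, 15882 bases downstream, differed the other way, at 14.3% in young and 21.3% in old cells. The last Pfkm start was at 89.8% and 87.2%. Idh2 (11.6 and 4.46%) and Ldhb (17.5 and 10.6%) were also lower in old cells, with differences of -7.15 and -6.84 points. From -1000 to -501 bases of the Idh2 start the level was 60% in young (90 calls) and 12.5% in old cells (80 calls), over 7 CpGs.

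Pdk4 showed the largest increase in promoter level, from 17.5% (15.7 to 19.5%) to 29.9% (27.9 to 31.9%) over 53 CpGs. In the 500 bases before its start the level was 22.9% in young and 38.9% in old cells, and in the 500 bases after it 8.45 and 18.6%. With the mean of CpG levels in place of pooled calls the Pdk4 difference was 7.89 points, and that of Pfkm was -8.97, both short of 10. In the narrower window from 250 bases before to 50 after the start, Idh3b differed by -5.51 points and Pdk4 by 11.8, and Pfkm gave no value. Pcx at its second start, the one of the transcript that stood for the gene, was at 78.8% and 87.3% over 13 CpGs. At its first start, 83847 bases upstream, it was at 7.5% in young and 2.10% in old cells over 108 CpGs. In each library the lower count of the 2 Pcx transcripts was 99.46 to 100% of the higher. The counts therefore do not tell which Pcx start the RNA came from. Eno2 was at 12.9% and 20.8%, a difference of 7.97 points. Aldoa was at 6.90% and 10.3%, within which the 500 bases before the start went from 3.27 to 12.1% and the bases 500 to 999 after it from 24.2 to 3.72%.

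**Figure D4:**
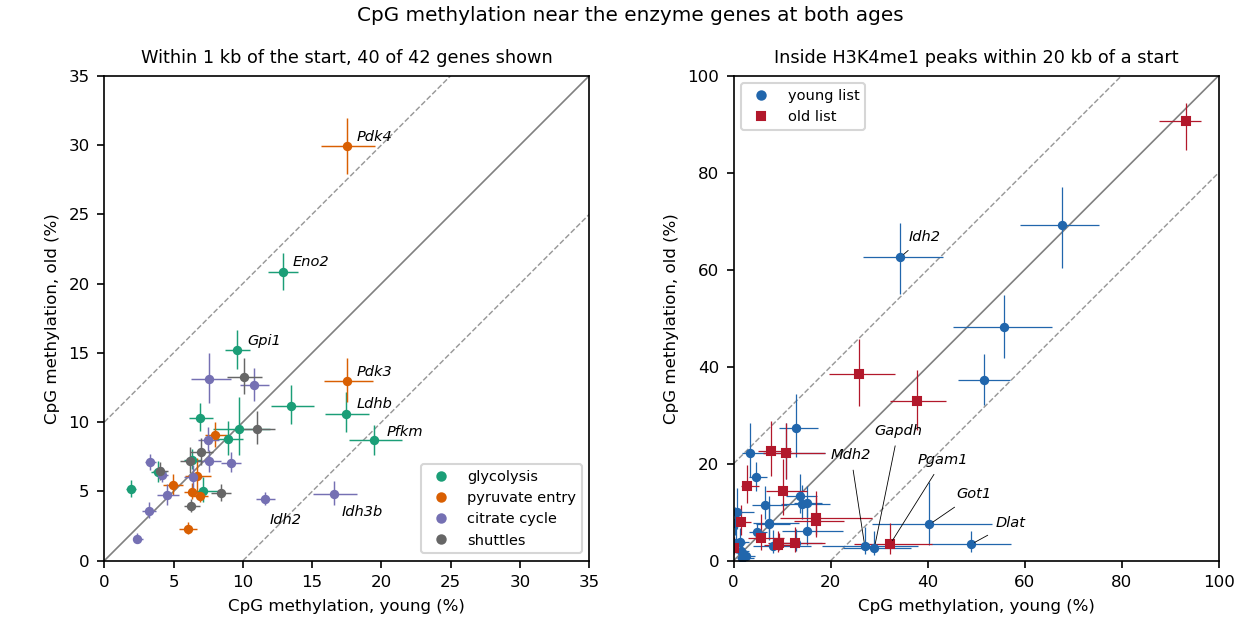
CpG methylation in young (horizontal) and old cells (vertical) in %, with 95% Wilson intervals, within 1 kb of the start (left, Aldoc and Pcx lie outside the axes at over 70%) and inside H3K4me1 peaks within 20 kb of a start (right, 29 peaks of the young and 16 of the old list). Dashed lines mark differences of 10 (left) and 20 points (right). Idh3b and Pfkm lie below and Pdk4 above the dashed lines on the left.

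Gene bodies, from 2000 bases after the start to the end of the transcript, were highly methylated in the 42 enzyme genes, with medians of 86.9% in young and 85.4% in old cells and a median difference of -0.14 percentage points, beside 0.155 over genes tested for RNA. The largest decrease was in Idh3g, from 89.8% to 78.5% over 34 CpGs, which made 1 of 42 genes lower by at least 10 points, beside 1.15% of tested genes, and 0 higher, beside 1.23%. The largest increase was in Pcx, from 39.1% to 46.4% over 487 CpGs, and its body level was the lowest of the 42 at both ages. Aldoa, the gene called higher in RNA, went from 77.7% to 72.3% over 26 CpGs, and Suclg1 from 86.4% to 81.2% over 236 CpGs.

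H3K4me1, a mark of enhancers and of the flanks of active starts, was called in 77291 peaks in young and 36207 in old cells. The young list is the longer one, so a peak missing in old cells does not by itself show a loss. A peak lay within 5 kb of the start in 34 of 42 enzyme genes (81%) in young and 27 (64.3%) in old cells, beside 76% and 58.4% of genes tested for RNA. Tpi1 and the second Pcx start had such peaks in the old list only, while the first Pcx start had 1 in each list. Pgk1, Eno1, Pdha1, Pdk3, Idh2 and Suclg1 had none at either age. H3K27ac, a mark of active regulatory elements, lay within 1 kb of 26 starts (61.9%) in young cells, beside 48.8%. The widest regions at these starts were 3723 bases at Gapdh and 3410 at Aldoa, and the median width was 1370.5, beside 1195 over genes tested for RNA.

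H3K27me3, which Polycomb complexes place on silenced genes, was rare at these starts in young cells. It lay within 1 kb of 3 starts (7.14%), Pdk4, Idh3b and Me3, beside 21.5% of genes. In old cells it lay at 15 (35.7%), beside 36.8%, from a list covering 649.2 Mb against 451.8 Mb in young cells. Idh3b, marked in the young list, was not in the old one, while Pdk4 and Me3 were in both. The 15 starts in the old list belonged to genes of both directions in RNA. Pdk4, Me3, Pfkl, Aco1 and Idh3g stood at log2 changes of -3.64, -2.31, -0.98, -0.60 and -0.22. The others of the 15 had positive changes, among them Aldoa, Idh2 and Suclg1 at 1.12, 1.17 and 1.13. The same 15 held all 4 enzyme genes of the X chromosome (Pgk1, Pdha1, Pdk3 and Idh3g), a grouping made after the values were seen. In the old list 87.1% of tested genes on the X chromosome were marked, beside 35% on other chromosomes, and in the young list 17.6% and 21.6%. The sources used here do not give the sex of the mice. With only the old regions at or above the median score, 9 starts were marked.

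**Figure D5:**
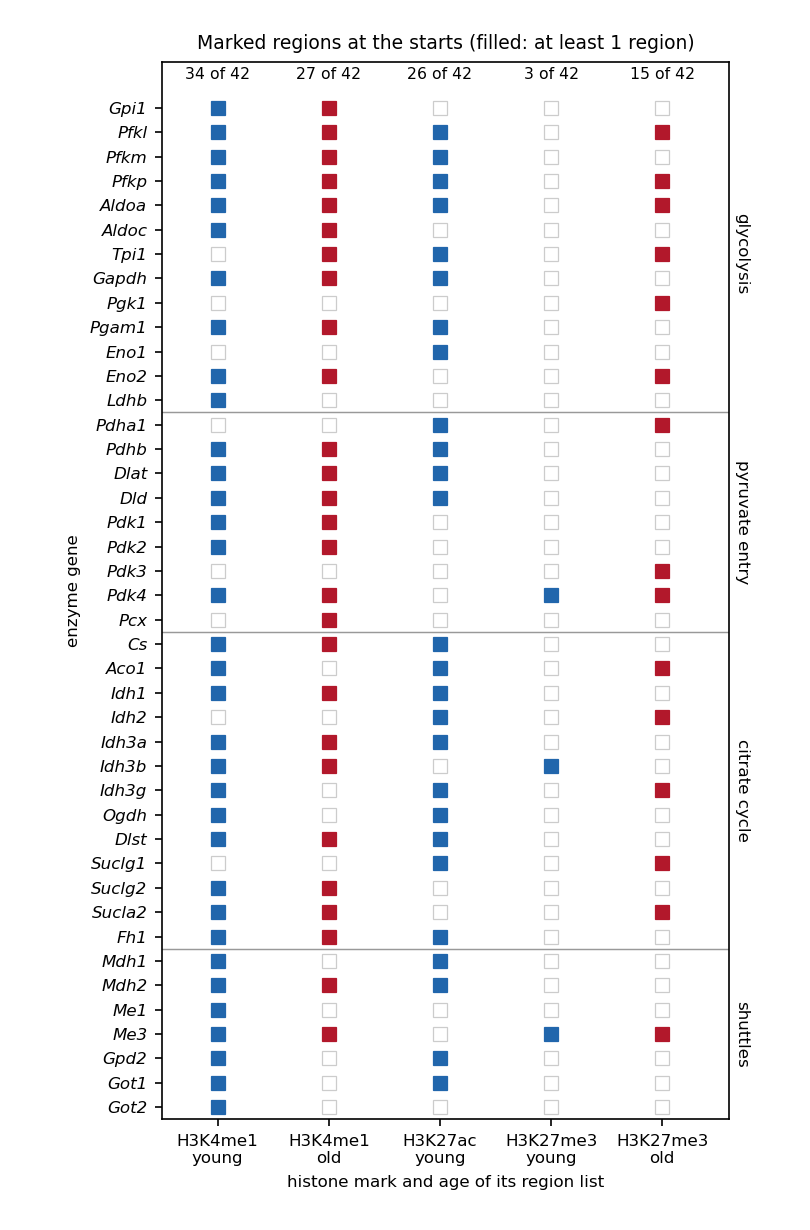
Presence (filled) or absence (open) of a region of each histone mark list at the start of each of the 42 enzyme genes, within 5 kb for H3K4me1 and 1 kb for H3K27ac and H3K27me3, with young lists in blue and old lists in red and the number of marked genes above. H3K27me3 fills 3 starts in the young and 15 in the old list.

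Methylation was also measured inside the H3K4me1 peaks within 20 kb of the 42 starts. These peaks are narrow, and of 153 in the young list 29 held at least 5 CpGs. Old cells were lower by at least 20 points in 4 (13.8%), beside 4.84% of such peaks near genes tested for RNA, and higher in 1 (3.45%), beside 1.92%. The lower peaks lay near Dlat, Got1, Gapdh and Mdh2, and their places are given in bases from the start, negative before it. The Dlat peak (mm9 chr9:50468689-50468815), at -867, was at 48.9% in young (139 calls, 95% interval 40.8 to 57.2%) and 3.36% in old cells (298 calls, 1.83 to 6.07%). The Got1 peak (chr19:43605591-43605717), at -6559, was at 40.4% and 7.46%, with 57 and 67 calls. The Gapdh peak (chr6:125097578-125097704), at 17960 and beyond the end of the gene, was at 29% and 2.67%. The Mdh2 peak (chr5:136255217-136255343), at 761 and inside the gene, was at 27% and 3.07%, and it and the Gapdh peak lay in H3K27ac regions.

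Higher in old cells was a peak at -15076 from the Idh2 start (chr7:87275249-87275375), with 34.4% in young and 62.6% in old cells. Of 82 peaks in the old list 16 were measured, 1 was lower by at least 20 points (6.25%, beside 4.84%) and 0 were higher, beside 1.86%. That peak lay at -15406 from the Pgam1 start (chr19:41970895-41971015), in an H3K27ac region, with 32.3% in young and 3.43% in old cells.

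Since few narrow peaks held 5 CpGs, windows of 500 bases either side of each peak centre were added after the data had been seen. Of 142 windows measured for the young list 14 were lower by at least 20 points (9.86%, beside 4.06% near genes tested for RNA) and 4 were higher (2.82%, beside 0.9%). The median difference was -2.28 points, beside -0.715. For the old list 8 of 78 were lower (10.3%, beside 4.18%) and 1 was higher (1.28%, beside 0.855%). A window 2008 bases into Fh1 was at 60.1% in young and 17.6% in old cells, the Dlat window at 45.1 and 5.41%, and a window 16343 bases into Idh1 at 78.4 and 43.9%. A window centred at -555 from the first Pfkm start was at 58.2 and 33.3%. The largest increase was 12419 bases after the Idh3g start, from 26.1 to 64.2%. Pairs of these windows overlap at Pfkm and at Suclg1, and windows of both lists overlap at Idh1, Tpi1, Cs, Gapdh, Pfkm and Aldoc, so they are not independent.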

How the data were processed

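RNA of sorted β cells was held as 3 old and 2 young libraries, and each histone mark and bisulfite sample as 1 per age. STAR, edgeR, HOMER, Bowtie 0.12.7, CASAVA 1.8.2 and the build mm9 are listed in the submitters' processing notes, with no role for each. The authors deposited whole-number read counts for 28644 RefSeq transcripts, and the transcript with the highest total stood for a gene. The sources used here do not say if counting used the strand. The young columns carry no replicate number, and they are called shallower and deeper here after their total gene counts. Their labels also differ in a suffix that the old columns lack and that was not interpreted here. A second deposited table, a signal described as FPKM, gave positions and a relative length (count over signal). In it old library 3 repeats the values of the shallower young column in 100% of entries, so lengths came from the other columns. Per the file headers, HOMER called the H3K4me1 and H3K27ac peaks on 1 library against 1 input, with a deposited score, signal (tag count), fold over input and p-value per peak. The deposited H3K27me3 lists have no header, and their score and p-value columns are unlabelled. The deposited CpG tables give a methylated fraction and a read count per CpG, and fraction times coverage lay within 1.9e-08 of a whole number.

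Computed here were edgeR 4.0.16 quasi-likelihood tests in R 4.3.3 (TMM, filterByExpr, two-sided, Benjamini-Hochberg over 15544 genes, threshold 0.05), exact permutation tests of shares over libraries, and methylation over at least 5 CpGs. The libraries are separate pools of mice, and p-values measure the spread between these pools. The scripts were tested on simulated data. Alternatives were DESeq2 1.42.0, limma-voom, RLE factors, β-marker scaling, thinning, no filter, another transcript, each library left out, and other windows, distances and coverage. The members and lists were chosen with earlier results of these data known. The rule for named genes took those called and, in each step, the 2 with the largest change and a mean of at least 5 CPM. Related genes were described together, the 3 largest increases and decreases in promoter methylation were named, and up to 2 H3K4me1 peaks a gene past 20 points. Other genes named with values were chosen after these were seen. Results for some genes of the wider pathway list are not reported here.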

Additional observations from a re-analysis of the deposited data

How the results depend on the processing

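No paired analysis was possible because the young columns carry no replicate number. With 1 enzyme gene called higher and 0 lower, the calls were 3 higher with no filter on low counts (beside 3.94% of all genes), 4 higher and 2 lower with DESeq2, 2 higher with limma-voom, 2 higher with the transcript of the lowest total (2.96%), and 0 higher and 1 lower under scaling on β-cell markers (0.302% and 12.3%). Over the fits that left out 1 library the calls ranged from 0 to 14 higher and from 0 to 3 lower, and where 1 young library was left it was assumed to vary like the old ones. RLE factors changed no call or direction in the 42 genes, nor did thinning in the 41 it still tested. The median log2 change was -0.11 under β-marker scaling. Under that scaling the log2 change turned to -0.36 for Pfkp, -0.01 for Tpi1, -0.14 for Pgk1, -0.11 for Eno2, -0.08 for Ldhb, -0.14 for Pdha1, -0.10 for Dlat, -0.24 for Cs, -0.48 for Idh1, -0.03 for Idh3b, -0.44 for Ogdh, -0.14 for Dlst, -0.07 for Suclg2, -0.32 for Mdh2 and -0.04 for Got2. With no filter Gpd2 turned to 0.02. With 1 library left out the log2 change ranged from -0.23 to 0.69 for Pfkp, -1.99 to 1.0 for Aldoc, -0.34 to 1.31 for Pgk1, -0.29 to 1.40 for Dlat and -0.78 to 0.05 for Pdk2. The range was -1.03 to 0.03 for Aco1, -0.14 to 0.75 for Idh1, -0.95 to 0.41 for Idh3a, -0.48 to 0.11 for Idh3g, -0.01 to 0.36 for Ogdh and -0.16 to 1.14 for Dlst. It was -3.20 to 0.30 for Me3 and -0.35 to 0.39 for Gpd2. The cause was not tested.

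Starts in young H3K27me3 regions numbered 7 within 5 kb, and starts in old ones 9 with regions at or above the median score. Of young-list H3K4me1 peaks, 2 were lower and 0 higher within 5 kb, 2 higher within 50 kb, 0 higher at or above the median score, and 14 lower and 4 higher in windows of 500 bases either side. Of old-list peaks, 0 were lower within 5 kb and at or above the median score, 8 lower and 1 higher in the wide windows, and 1 higher within 50 kb. Starts lower by 10 points numbered 1 with at least 10 reads per CpG, 1 from 250 bases before to 50 after the start and 1 with the mean of CpG levels, and 3 were higher in the narrow window. The lower start in that narrow window was Fh1 (-14.7 points), and the higher ones were Gpi1 (12.2), Pdk4 (11.8) and Pcx (21.8). The mean of CpG levels left Idh3b as the lower start (-14.2) and Pcx as the higher one (11.6), with Gpi1 at -0.386. Thinned to the depth of the shallowest library, Aldoa kept its call (edgeR adjusted p = 0.0393).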
